A study of Mus musculus with 16 samples.

Results

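The 39 protein-coding genes of the 4 mouse Hox clusters were examined for chromatin accessibility in 8 tissues of fed and fasting mice. The members were all GENCODE vM21 protein-coding genes named Hoxa, Hoxb, Hoxc or Hoxd followed by a number, 39 of the 21938 protein-coding genes of that annotation. Membership followed the gene name alone, but the family was chosen with earlier results of these data known. There were 11 genes in the Hoxa cluster (GRCm38, chr6:52155590-52260880, minus strand), 10 in Hoxb (chr11:96194316-96368256, plus strand), 9 in Hoxc (chr15:102921103-103036852, plus strand) and 9 in Hoxd (chr2:74668310-74765142, plus strand). The assay was ATAC-seq. The transposase Tn5 inserts adapters where DNA is open, so that open sites appear as peaks of sequenced fragments. Kidney, lung, heart, liver, spleen, muscle and both brown and white adipose were taken from male wild-type C57BL/6 mice acquired at 12 weeks of age. The fed mice had free access to food and the fasting mice went without it for 24 h. Frozen tissue of the 3 mice of a state was pooled into 1 library, so that there were 16 libraries, no replicates, and the same mice behind the 8 tissues of a state. The labels name muscle and the adipose tissues without a body site.

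Hox genes encode homeodomain transcription factors that give cells their position along the head-to-tail and limb axes. The genes of a cluster lie in the order in which they act. Paralogue groups 1 to 3 are anterior, groups 4 to 8 are central and groups 9 to 13 are posterior, and every gene of a cluster is read in the same direction with the lowest number at the 3' end. In the embryo Polycomb complexes keep unused parts of a cluster closed and trithorax proteins keep used parts open, and adult mesenchymal and kidney cells are known to retain part of the embryonic Hox code of their origin. Cofactors of the PBX and MEIS families bind DNA together with HOX proteins.

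Each gene was given, in each library, the percentile of the strongest deposited peak whose summit lay within 3000 bp of any annotated start of that gene. The percentile ranked the peak by its p-value among all deposited peaks of the same library, from 0 for a gene with no listed peak to 100 for the strongest peak of the list. The files are not scaled between libraries, so a percentile says where a Hox peak stood within its own library and not how many fragments it held. The lists held 298996 to 299529 peaks each, and depth differed, with a genomic background from 2.80 tags at a summit in fed liver to 12.8 in fed brown adipose. Tag counts were recovered here from the fold enrichment and p-value of each peak. Liver was the shallowest tissue and spleen the next. A percentile near 50 stood for a median of 13 tags in fed liver and 100 tags in fed brown adipose, so a mid-range value rests on far fewer fragments in liver, spleen and heart than in the deep libraries. Marker genes of each tissue (5 each) had their highest mean percentile in the labelled tissue for 7 of the 8 lists, and the white adipose list stood at 91.3 in brown and 87.3 in white adipose.

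Hox gene starts were weaker and more variable than those of most genes. The median over the 39 genes of the mean percentile was 57.5, against 90.4 for the 19719 protein-coding genes with a listed peak in at least 1 library. The median range from the lowest to the highest library was 72.4 points for Hox genes and 17.6 points for all genes tested. A peak with q under 0.01 was present in all 16 libraries for 15 of the 39 Hox genes, while the same held for 59.9% of all protein-coding genes. The other 24 Hox genes had such a peak in some libraries only, and none lacked one everywhere.

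At this threshold presence was most complete in kidney and least complete in lung, while at equal depth heart was the lowest (16 and 20, against 22 and 23 in lung). At equal depth 68.8% of all genes had a peak, averaged over the 16 libraries. Kidney listed a peak of q under 0.01 for 38 Hox genes fed (73.9% of all genes had one) and 37 fasting (74.2%). White adipose listed 36 and 35 (74.5% and 72.7% of all genes). Muscle listed 35 in each state (70.9% and 70.7%), as did brown adipose (71.3% and 69.3%) and spleen (76.1% and 77.5%). The counts were lower in liver, with 29 fed and 33 fasting (76.7% and 74.1% of all genes), in heart, with 28 and 29 (71.0% and 70.9%), and in lung, with 26 and 28 (74.0% and 73.5%). Lung had fewer Hox genes with a peak than kidney while the shares over all genes were nearly the same. At a q under 1e-06 the spread was wider, from 8 Hox genes in fed liver and 12 in fed heart to 37 in fed kidney. Of all genes 67.2% had such a peak, averaged over the 16 libraries, and no share by library is given at this setting. The background was 2.80 tags in fed liver, 4.92 in fed heart and 4.67 in fed kidney. The part of depth in this wider spread was not tested.

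**Figure D1:**
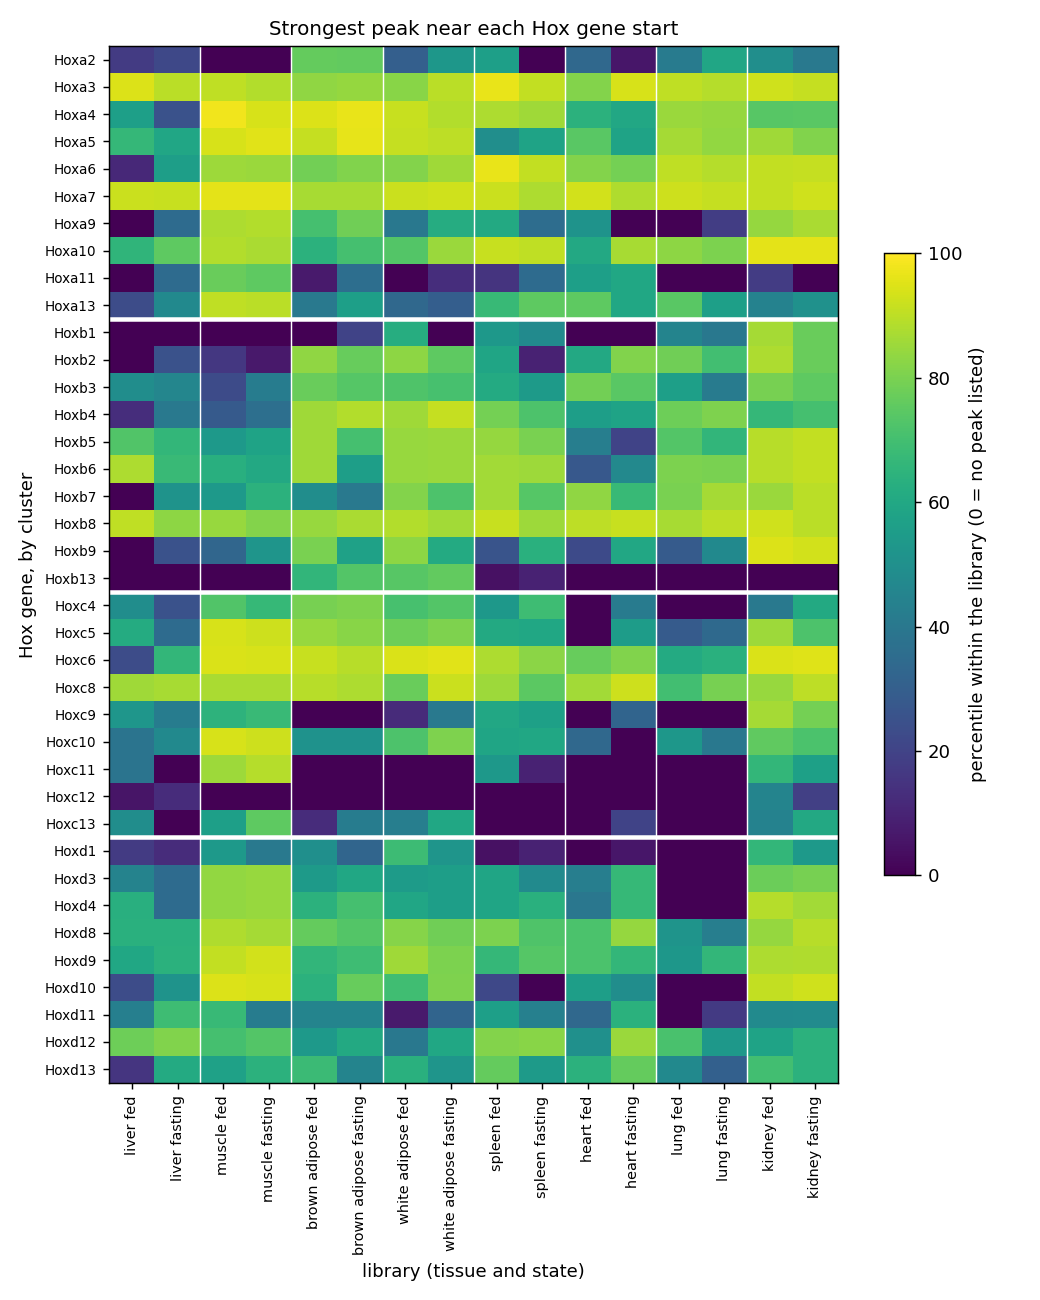
Percentile of the strongest peak within 3000 bp of a start for the Hox genes (rows, by cluster from the lowest to the highest number) in each of the 16 libraries (columns), with color from 0 (no peak listed) to 100. The fed and fasting columns look most alike in muscle and lung (Pearson's r = 0.97 in each). They differ more in heart (r = 0.76) and most in liver (r = 0.63). The Hoxd1, Hoxd3, Hoxd4 and Hoxd10 rows are at 0 in lung. The posterior Hoxa rows and those of Hoxc10, Hoxc11, Hoxd9 and Hoxd10 are bright in muscle, where Hoxc12 is at 0. Hoxb13 is bright in the 4 adipose libraries only.

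Differences among tissues were tested with limma in 1 model with tissue and state as terms, fitted over all 19719 genes. With 1 library per tissue and state, the error of this model is the way in which the fed-to-fasting difference varied among tissues, so its p-values do not cover variation between mice. By the tissue F test 32 of the 39 Hox genes differed among tissues at an adjusted p below 0.05, where 64.7% of all genes tested did. Genes of middling strength were called more often in general: of 7226 genes with a mean percentile of 20 to 92, 81.6% were called, and of the 37 Hox genes in that range 30 were. The share of Hox genes called was therefore near that of other genes of like strength, and the results below concern which tissues stood apart. The called genes were 9 of Hoxa, 9 of Hoxb, 8 of Hoxc and 6 of Hoxd.

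Each tissue was then set against the mean of the other 7, with p-values adjusted over all genes. Muscle was higher at 15 Hox genes (10.1% of all genes were higher there) and lower at 5 (12.4%). Kidney was higher at 12 (11.2%) and lower at 1 (10.6%). Brown adipose was higher at 6 (6.81%) and lower at 2 (11.2%), and white adipose was higher at 3 (6.54%) and lower at 1 (4.30%). Lung was higher at none (5.31%) and lower at 8 (3.18%), heart was higher at 1 (7.20%) and lower at 7 (8.33%), liver was higher at none (14.5%) and lower at 14 (27.1%), and spleen was higher at 1 (16%) and lower at 4 (18.5%). Of these 80 calls, 25 passed in all 8 alternative ways of computing the values and none turned its direction.

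**Figure D2:**
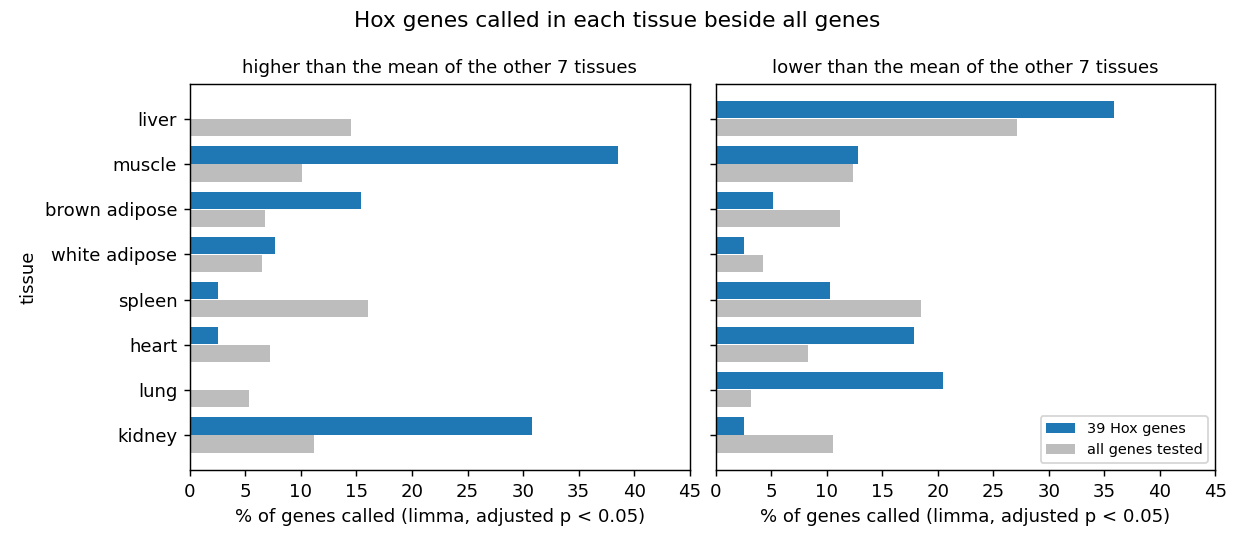
Percent of the 39 Hox genes (blue) and of all 19719 genes tested (grey) called higher (left) or lower (right) than the mean of the other 7 tissues, limma adjusted p below 0.05. The blue bars exceed the grey ones most for higher calls in muscle (15 genes) and kidney (12 genes) and for lower calls in lung (8 genes).

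In muscle the genes called higher were central and posterior members of Hoxa and posterior members of Hoxc, together with Hoxd genes of every group. Of the 15 genes called higher, 9 belonged to groups 9 to 13, and they came from Hoxa (Hoxa4, Hoxa5, Hoxa7, Hoxa9, Hoxa11 and Hoxa13), Hoxc (Hoxc9, Hoxc10, Hoxc11 and Hoxc13) and Hoxd (Hoxd1, Hoxd3, Hoxd4, Hoxd9 and Hoxd10). No Hoxb gene was among them, and 4 of the 5 genes called lower in muscle were Hoxb2, Hoxb3, Hoxb4 and Hoxb13. The last of these, Hoxb13, was called lower in every tissue but the adipose ones. Hoxa13, the last gene of its cluster and needed for digits and the urogenital tract, stood at 90.5 in fed and 89.8 in fasting muscle. It was at 67.3 and 75.2 in spleen, 75.3 and 59.4 in heart, 40.5 and 56.6 in brown adipose, 74.3 and 56.4 in lung, 44.4 and 50.4 in kidney, 23.4 and 47.4 in liver, and 33.8 and 29.8 in white adipose. Both muscle libraries lay above the 14 others, by 37.8 ± 8.01 points over the mean of the other tissues (SE, adjusted p = 0.0103).

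Hoxc10 and Hoxc11, posterior genes known from the lumbar region and the hindlimb, were the strongest muscle cases in Hoxc. Hoxc11 was listed at 85.2 and 88.8 in fed and fasting muscle, 66.1 and 56.9 in kidney, 53.3 and 9.6 in spleen, 38.4 and 0.0 in liver, and at 0.0 in the 8 libraries of the adipose tissues, heart and lung. Its muscle summits held 150 and 306 tags, its kidney summits 87 and 56, and the summits in spleen and liver 12 to 15. Muscle exceeded the other tissues by 71.0 ± 9.38 points (adjusted p = 0.00106) and kidney by 41.8 ± 9.38 (adjusted p = 0.0124). Hoxc10 was at 93.9 and 92.4 in muscle, 75.7 and 71.5 in kidney, 72.1 and 80.6 in white adipose, 51.0 in both brown adipose libraries, 58.8 and 59.4 in spleen, 38.4 and 47.4 in liver, 52.9 and 40.2 in lung, and 33.6 and 0.0 in heart. The 2 muscle values were the highest of the 16, and heart was lower than the rest by 46.5 points (adjusted p = 0.00490). In 4 libraries, muscle included, the strongest Hoxc10 peak was also the strongest peak of Hoxc5, whose long annotated transcript starts beside Hoxc10, so these genes do not count as independent.

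Hoxd10, a posterior gene of limb and lumbar patterning, had the third smallest tissue p of the Hox genes. Its percentile was 94.6 and 94.0 in muscle and 90.7 and 92.7 in kidney. It was 64.3 and 76.7 in brown adipose, 69.4 and 80.6 in white adipose, 55.9 and 49.2 in heart, 23.4 and 51.5 in liver, 21.5 and 0.0 in spleen, and 0.0 in both lung libraries. Muscle and kidney did not overlap with any other tissue, and lung had no listed peak at all. The differences were 46.0 ± 8.06 points in muscle (adjusted p = 0.00425), 43.1 ± 8.06 in kidney (adjusted p = 0.00519) and -61.7 ± 8.06 in lung (adjusted p = 0.00250). At Hoxd3 and Hoxd4 muscle and kidney were again the highest tissues and lung was at 0. Hoxd3 was at 83.7 and 84.6 in muscle, 77.6 and 79.3 in kidney, 44.8 and 35.0 in liver, 54.5 and 59.5 in brown adipose, 55 and 56.0 in white adipose, 58.8 and 47.7 in spleen, 42.7 and 66.8 in heart, and 0.0 in both lung libraries. Hoxd4 was at 83.7 and 84.6 in muscle, 88.9 and 86.2 in kidney, 63.1 and 35.0 in liver, 64.1 and 70.5 in brown adipose, 59.2 and 56.0 in white adipose, 58.8 and 63.3 in spleen, 39.7 and 66.8 in heart, and again 0.0 in both lung libraries. Hoxd3 and Hoxd4 shared their strongest summit in 6 libraries and so do not count as independent. Without the lung libraries Hoxd4 no longer differed among tissues (limma, adjusted p = 0.0766).

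Kidney shared 7 of its 12 higher genes with muscle (Hoxc9, Hoxc11, Hoxd1, Hoxd3, Hoxd4, Hoxd9 and Hoxd10, of 15 in muscle). It added genes of Hoxb, a cluster with no higher call in muscle. At equal depth 10 of the 15 muscle calls and 7 of the 12 kidney calls were kept. Of the shared genes, only Hoxc11 and Hoxd10 were then still called higher in both tissues. Hoxb9 was at 94.9 and 93.1 in kidney against a mean of 45.7 elsewhere (difference 48.3 ± 12, adjusted p = 0.0191). Hoxb1, the most anterior gene of its cluster and a regulator of hindbrain segments, was listed at 86.4 and 77.2 in kidney, 62.2 and 0.0 in white adipose, 53.3 and 47.7 in spleen, 45.3 and 40.2 in lung, 0.0 and 20 in brown adipose, and at 0.0 in liver, muscle and heart. Kidney exceeded the other tissues by 62.6 ± 11.4 points (adjusted p = 0.00462), and the 2 kidney values lay above all others. Hoxa10, a posterior gene with known roles in the limb and reproductive tract, reached 95.8 in both kidney libraries (difference 17.0 ± 5.16, adjusted p = 0.0419). This call was lost when ranked by fold enrichment, at equal depth and without the mean-variance trend.

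Hoxc9 and Hoxc12 completed the kidney group. Hoxc9, a gene of the thoracic region, stood at 86.7 and 79.2 in kidney, 64.6 and 67.9 in muscle, 60.0 and 57.0 in spleen, 52.4 and 42.1 in liver, 12.3 and 40.5 in white adipose, 0.0 and 32.1 in heart, and 0.0 in brown adipose and lung. Its tissues fell into an order in which kidney, muscle and spleen did not overlap with each other or with the tissues below them. The spleen call (24.4 ± 8.39 points, adjusted p = 0.0481) rests on summits of 19 and 20 tags and was lost under 4 of the 8 alternatives, whereas the kidney call (52.3 ± 8.39, adjusted p = 0.00233) was kept under all 8. Hoxc12 was listed in 4 libraries only, at 45.2 and 19.1 in kidney, with 30 and 18 tags, and at 5.5 and 12.6 in liver, with 10 tags each. Its kidney call was lost with a 1000 bp window and at equal depth.

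Most of the genes called higher in brown adipose were anterior or central. Brown adipose was called higher at Hoxa2, Hoxa4, Hoxa5, Hoxb4, Hoxc4 and Hoxb13, and white adipose at Hoxb4, Hoxb13 and Hoxd1. Ranked by fold enrichment, Hoxb13 was the 1 gene of these 6 still called in brown adipose, and Hoxd1 was not called in white adipose at equal depth. Hoxb4, best known from blood stem cells, was at 85.7 and 88.5 in brown and 85.7 and 91.4 in white adipose. It was at 78 and 80.5 in lung, 79.1 and 72.0 in spleen, 66.6 and 70.6 in kidney, 55.9 and 57.9 in heart, 28.4 and 36.4 in muscle, and 13.1 and 40.4 in liver. The 4 adipose libraries were the highest and muscle and liver the lowest, with differences of 26.0 ± 6.15 in brown adipose (adjusted p = 0.0191), 27.7 ± 6.15 in white adipose (adjusted p = 0.0243), -36.6 ± 6.15 in muscle (adjusted p = 0.00346) and -43.0 ± 6.15 in liver (adjusted p = 5.52e-04). With fold enrichment as the ranking measure, or with all libraries thinned to equal depth, neither adipose tissue was called higher at Hoxb4.

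Hoxa4 and Hoxa5, central genes of which Hoxa5 is required for lung development, were high in muscle as well as in fat. Hoxa5 was at 94.0 and 95.4 in muscle, 91.2 and 89.9 in white adipose, 86.6 and 83.8 in lung, 91.4 and 96.3 in brown adipose, 85.8 and 81.1 in kidney, 74.5 and 57.9 in heart, 66.7 and 59.2 in liver, and 49.3 and 57.9 in spleen. Hoxa4 was at 94.9 and 96.7 in brown adipose, 97.7 and 93.8 in muscle, 91.5 and 88.4 in white adipose, 87.6 and 85.9 in spleen, 85.1 and 84.2 in lung, 74.1 and 74.5 in kidney, 64.3 and 60.0 in heart, and 56.3 and 25.3 in liver. The strongest Hoxa4 summit lay 2415 to 2427 bp from the start in the 4 muscle and brown adipose libraries, and at equal depth both calls were lost, that of brown adipose also with a 1000 bp window. At Hoxa4 muscle and brown adipose overlapped with each other and lay above all other tissues, and heart and liver lay below the rest. The last gene of the group, Hoxc4, was at 79.6 and 80.8 in brown adipose, 70.8 and 73.3 in white adipose, 72.9 and 67.1 in muscle, 53.3 and 68.9 in spleen, 49.0 and 25.3 in liver, 40.4 and 60.9 in kidney, 0.0 and 41.6 in heart, and 0.0 in lung. Brown adipose exceeded the others by 35.6 ± 9.97 points (adjusted p = 0.0360), a call that was lost at equal depth, and lung fell short of the others by 56.0 points (adjusted p = 0.0103), a call also lost at equal depth and with gene 5' ends only.

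Hoxb13, the outlying last gene of Hoxb with known roles in the tail bud and prostate, had the smallest tissue p of all Hox genes (F = 102, adjusted p = 3.91e-06). Its percentile was 66.0 and 73.1 in fed and fasting brown adipose, 74.0 and 76.0 in white adipose, 4.4 and 9.6 in spleen, and 0.0 in the other 10 libraries. The peak was not at the start of the gene. Its summit lay 2697 to 2801 bp downstream of the start in the 4 adipose libraries, in an untranslated part of the gene, with 38 to 109 tags, and no promoter peak was listed in any library, so with a window of 1000 bp the calls at Hoxb13 were lost. The small p reflects 10 libraries at the same value of 0, which do not vary. Each tissue outside fat was called lower at Hoxb13, which restates the adipose peak. In white adipose a list of 8 epididymis and male tract markers had a mean percentile of 34.8, against 12.8 in brown adipose and 14.2 to 28.7 in the other tissues, with 2 of the 8 at 0 in white and 6 of 8 in brown adipose. Of the 8, Spint4 (75.5), Adam7 (74.7), Crisp1 (44.8) and Cst8 (29.4) were listed in fed white adipose and at 0.0 in fasting white adipose. Lcn5 (88.1 fed and 57.4 fasting) and Rnase10 (91.8 and 95.8) were listed in both, and Lcn8 and Lcn9 in neither. Lcn5 and Rnase10 were not particular to white adipose. Lcn5 was called higher in heart (86.3 and 88.0) and muscle (77.6 and 85.0), and not in white adipose. For Rnase10 the higher calls were those of liver (89.9 and 93.7), white adipose and brown adipose (95.3 and 96.9). The part of other cell types in the Hoxb13 peak was not tested.

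Lung was low at 5 of the 9 Hoxd genes. The genes called lower were Hoxd1, Hoxd3, Hoxd4, Hoxd8, Hoxd10, Hoxc4, Hoxc9 and Hoxb13, and 7 of these 8 were at 0.0 in both lung libraries. The eighth, Hoxd8, was at 51.6 and 42.9 in lung and between 63.4 and 89.3 in the other 14 libraries. Hoxb13 was called lower in every tissue but the adipose ones, so its call was not particular to lung. Hoxd1, the most anterior gene of its cluster, was at 68.4 and 52.3 in white adipose, 66.2 and 53.8 in kidney, 53.8 and 40.3 in muscle, 17.3 and 12.6 in liver, 49.8 and 32.8 in brown adipose, 4.4 and 9.6 in spleen, 0.0 and 6.1 in heart, and 0.0 in lung. Kidney, white adipose, muscle and brown adipose all lay above the other 4 tissues. White adipose overlapped with kidney and with muscle. Brown adipose overlapped with muscle and lay below kidney and white adipose. By their medians Hoxa and Hoxb were not low in lung. The median percentile there over the genes of a cluster was 83.2 and 83.8 for Hoxa, 75.6 and 67.9 for Hoxb, 0.0 and 0.0 for Hoxc, and 0.0 and 17.1 for Hoxd. Among posterior Hoxa genes, Hoxa9 was at 0.0 and 18.3 in lung (limma, adjusted p = 0.0631) and Hoxa11 at 0.0 in both states (adjusted p = 0.0646). Neither was called, and Hoxa10 and Hoxa13 were not low. The lung libraries had a background of 8.92 and 7.14 tags, and 5 of the 8 lower calls were kept at equal depth, those of Hoxd1, Hoxb13 and Hoxc4 being lost.

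Liver and heart had more lower than higher calls at Hox genes, and the same held over all genes tested. Of all genes, liver was lower at 27.1% and higher at 14.5%, and heart was lower at 8.33% and higher at 7.20%. Liver was called lower at 14 Hox genes (35.9%), among them Hoxa4, Hoxa5, Hoxb4, Hoxb9 and Hoxc6, and 12 of the 14 were kept at equal depth. Heart was called lower at 7 (17.9%), namely Hoxa4, Hoxb5, Hoxb6, Hoxb13, Hoxc5, Hoxc10 and Hoxd1, of which 3 were kept at equal depth. Hoxb5 was at 42.7 and 20.3 in heart, 53.8 and 58.0 in muscle, 72.7 and 66.1 in liver, 73.2 and 65.9 in lung, 84.3 and 79.8 in spleen, 85.9 and 70.6 in brown adipose, 84.4 and 85.1 in white adipose, and 89.4 and 90.9 in kidney. Both heart values were the lowest of the 16 and both kidney values the highest, with differences of -44.2 ± 5.66 (adjusted p = 0.00152) and 22.8 ± 5.66 (adjusted p = 0.0192). The heart call was kept under all 8 alternatives. The kidney call was lost with a 1000 bp window, when ranked by fold enrichment, and with rows of q under 0.01 only. The only higher call in heart was Hoxa11, at 56.6 and 59.5 with 19 and 22 tags (35.8 ± 8.84 points, adjusted p = 0.0256), and it was lost at equal depth.

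Some Hox genes had a listed peak in all 16 libraries. Genes with no tissue call in the F test included Hoxa3, Hoxb8, Hoxc8, Hoxd11, Hoxd12 and Hoxd13. The lack of a call does not mean a peak everywhere. Hoxd11 was at 0.0 in fed lung, 17.1 in fasting lung and 7.3 in fed white adipose (limma F test, adjusted p = 0.0644). Hoxa3, Hoxb8 and Hoxc8 had lowest values of 81.5, 81.3 and 69.9 over the 16 libraries. Hoxa7, which was called (adjusted p = 0.0404), lay between 87.0 and 96.0. The strongest Hoxc8 summit lay at -2983 to -2940 bp from a start in all 16 libraries, a span of 43 bp, and the Hoxa7 summits lay within 133 bp of each other. The strongest Hoxb8 summit lay at -2921 to -2892 bp in 15 libraries and at 2665 bp in fasting kidney. For Hoxc8, and for Hoxb8 in those 15, the strongest peak was therefore upstream of the gene and not at its start. Hoxd13, the last gene of Hoxd, was at 64.3 and 76.5 in heart, 69.8 and 64.1 in kidney, 76.2 and 54.4 in spleen, 57.3 and 64.1 in muscle, 63.6 and 52.3 in white adipose, 47.4 and 30.5 in lung, 68.1 and 45.3 in brown adipose, and 15.5 and 61.2 in liver. The F test called no tissue difference at Hoxd13 (limma, adjusted p = 0.393), and the lowest value was that of fed liver. Hoxc13, the last gene of Hoxc and known from hair and nail, was at 56.3 and 75.1 in muscle, 44.2 and 60.3 in kidney, 42.9 and 59.7 in white adipose, 49.0 and 0.0 in liver, 12.5 and 41.9 in brown adipose, 0.0 and 20.3 in heart, and 0.0 in spleen and lung, with only muscle called higher (42.1 ± 11.8, adjusted p = 0.0313).

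The relation of percentile to position in the cluster differed in sign between muscle and the adipose tissues. Spearman's rho between paralogue number and percentile over the 39 genes of a library was -0.45 and -0.41 in fed and fasting brown adipose, -0.41 and -0.30 in white adipose, -0.31 and -0.25 in kidney, and -0.28 and -0.32 in lung. It was -0.17 and -0.16 in spleen, -0.09 and -0.11 in heart, -0.14 and 0.11 in liver, and 0.10 and 0.14 in muscle. Ranked by fold enrichment, rho was -0.04 and -0.27 in brown adipose, -0.20 and -0.12 in white adipose, and 0.09 and 0.13 in muscle. These correlations run across genes that share a library and, in part, a peak, and they are given as a description. The median percentile of groups 9 to 13 was 73.9 and 75 in muscle, 67.9 and 64.2 in kidney, 52.3 and 53.8 in brown adipose, and 0.0 and 17.7 in lung, while for groups 1 to 3 it was 38.3 and 41.2 in muscle, 82.8 and 77.3 in kidney, 76.7 and 74.8 in brown adipose, and 50.9 and 50.4 in lung. Groups 4 to 8 had the highest median of the 3 groups in 15 of the 16 libraries, the exception being fasting heart (66.8, against 69.2 for groups 1 to 3).

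The profile over the 39 genes was shared by the states of a tissue. Pearson's r between the fed and the fasting library of a tissue had a median of 0.88 over 8 pairs, from 0.63 in liver to 0.97 in muscle and lung, and a median of 0.51 over the 112 pairs of different tissues. These values describe points that share clusters and peaks. In 14 of the 16 libraries the other state of the same tissue was the most similar library, the exceptions being fasting liver, closest to fed heart (r = 0.74), and fasting white adipose, closest to fed brown adipose (r = 0.87).

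Over whole clusters, the length under peaks of q under 0.01 was measured without any assignment to genes. On average 6.88% of the 4 clusters was under such peaks. Kidney covered 12.9% in both states, fed brown adipose 11.4% and fasting 7.17%, fed white adipose 10.6% and fasting 7.53%, and muscle 8.63% and 9.33%. Lung covered 5.69% and 5.89%, spleen 4.01% and 4.42%, liver 2.17% and 2.31%, and heart 2.06% and 2.99%, while 1.23% to 2.18% of the genome was covered in the 16 libraries. Muscle covered 16.5% and 16.8% of Hoxa and 12.8% and 13.9% of Hoxc but 1.42% and 2.63% of Hoxb, and lung covered 11.9% of Hoxa in both states but 1.40% and 1.66% of Hoxc. Kidney was the tissue with high cover in every cluster, from 10.1% to 17.6%. With all libraries thinned to the background of the shallowest, kidney covered 11.8% in both states and muscle 6.89% and 7.26%. Lung then covered 3.77% and 3.64%, liver 1.65% and 2%, and heart 0.830% and 1.47%. The thinning equalized the genomic background at a summit only. Genome cover still ran from 0.835% in fasting heart to 1.83% in fed kidney. The lower cover of fasting than fed fat went with a lower depth (6.76 and 12.8 background tags in brown adipose, 5.87 and 10 in white adipose), and it was 4.79% against 9.19% in brown and 4.99% against 8.05% in white adipose after thinning.

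**Figure D3:**
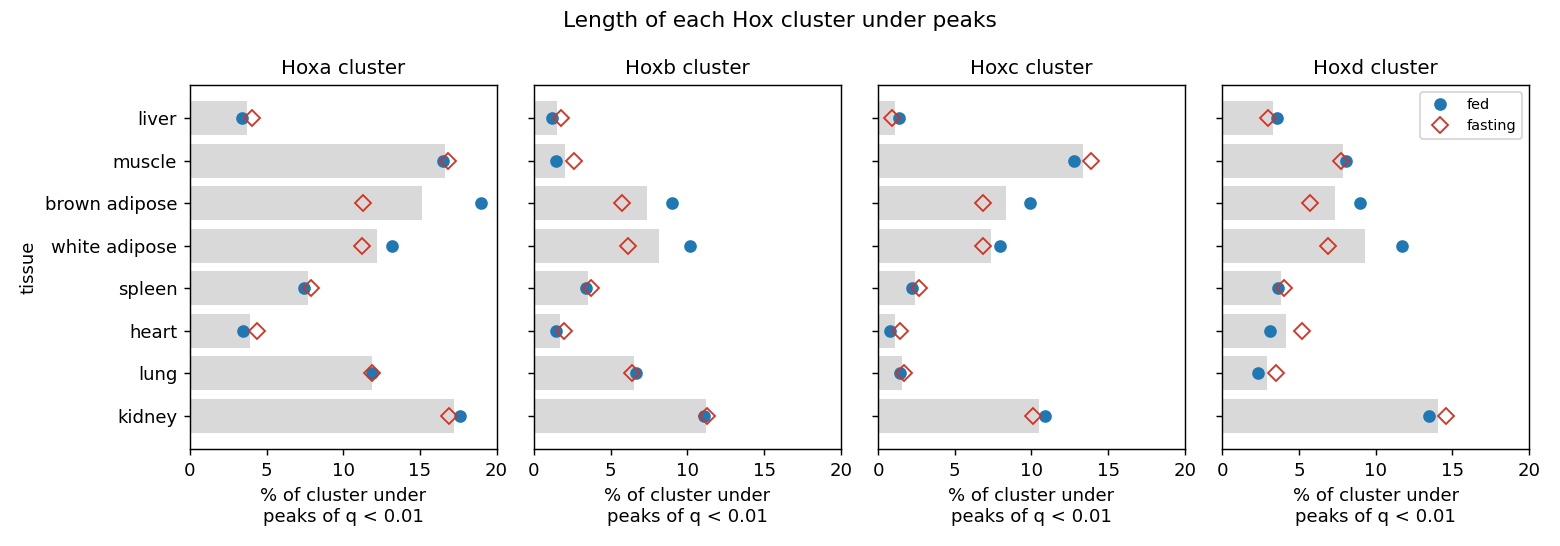
Percent of the length of each Hox cluster under peaks of q below 0.01 in each tissue, for the fed library (filled circle) and the fasting library (open diamond), with grey bars at the mean of both. Muscle is high in Hoxa, Hoxc and Hoxd but at 1.42% and 2.63% in Hoxb, lung is high in Hoxa and Hoxb only, and kidney is at 10.1% or more in all 4 clusters.

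Regions inside the clusters were compared next, to place the differences. Merging the peaks of q under 0.01 of all libraries gave 381 regions over the 4 clusters, and 264 were present in at least 2 of the 16 sets. The tissue F test called 184 of the 264, against 63.1% of 379519 such regions over the genome, and the called regions were 54 of 72 in Hoxa, 53 of 79 in Hoxb, 56 of 70 in Hoxc and 21 of 43 in Hoxd. A region enters this test by being present in 2 sets, which favors regions of 1 tissue, and regions at 0 in most libraries vary little and so have small p-values. Kidney was higher at 109 regions (16.2% of regions over the genome were) and lower at 19 (17.0%). Muscle was higher at 69 (13.3%) and lower at 44 (17.1%), brown adipose at 61 (11%) and 24 (17.7%), and white adipose at 45 (8.40%) and 25 (16.2%). Spleen was higher at 17 (16.4%) and lower at 55 (21.3%), lung at 12 (11.5%) and 54 (16.6%), liver at 6 (12.9%) and 76 (18.1%), and heart at 2 (8.51%) and 61 (18.2%).

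By cluster, none of the 79 Hoxb regions was higher in muscle and 24 were lower, while 34 of the 70 Hoxc regions were higher there. In kidney 43 of the 79 Hoxb regions were higher. No region of Hoxc or Hoxd was higher in lung, whereas 6 in Hoxa (8.33%) and 6 in Hoxb (7.59%) were, beside 11.5% over the genome. The regions lower in lung were 12 in Hoxa (16.7%), 10 in Hoxb (12.7%), 23 in Hoxc (32.9%) and 9 in Hoxd (20.9%), beside 16.6%.

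**Figure D4:**
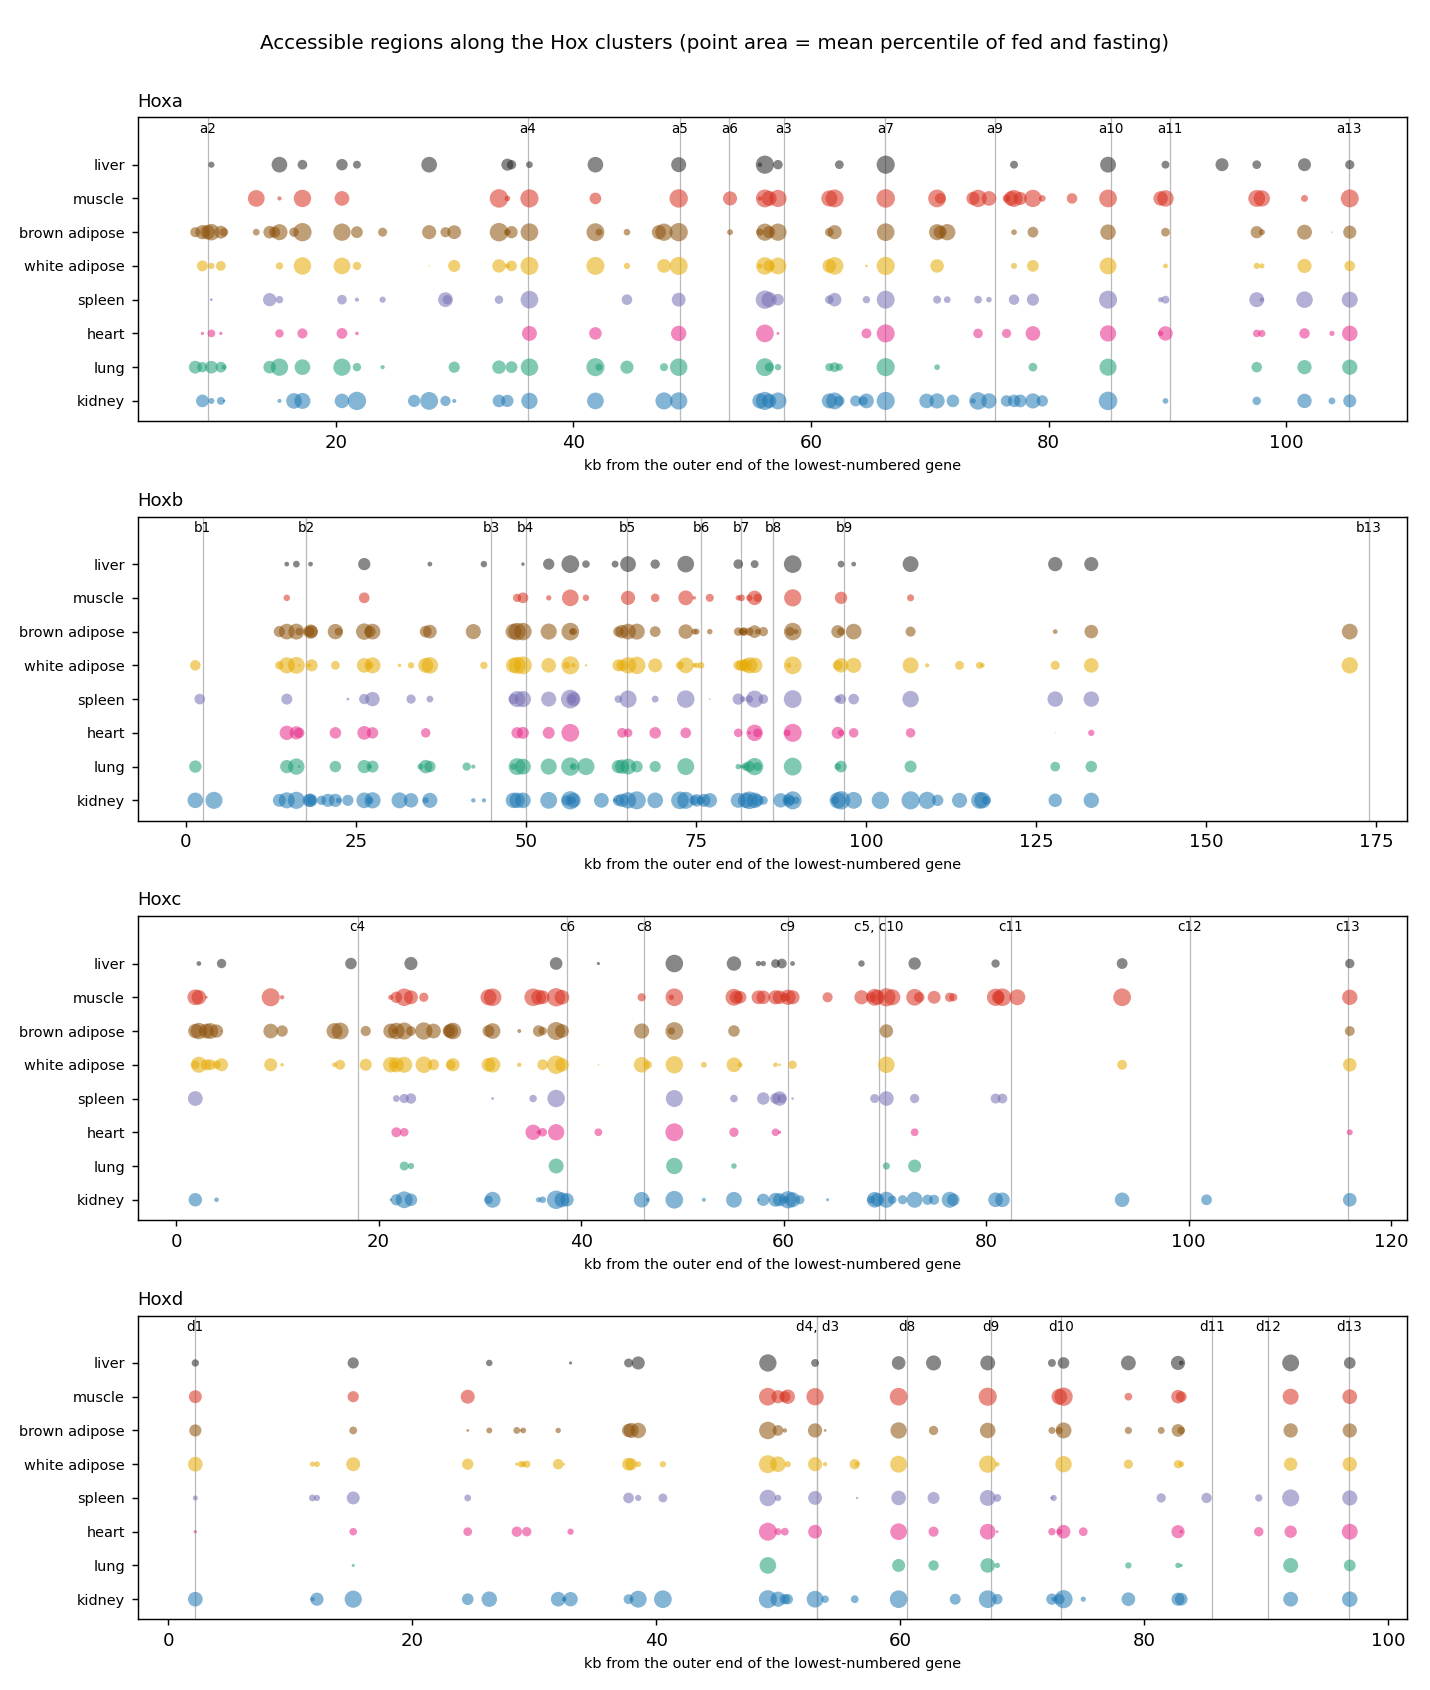
Accessible regions along each cluster, at their summit, in kb from the outer end of the lowest-numbered gene, with 1 row per tissue and point area proportional to the mean percentile of the fed and fasting library. Grey lines mark annotated 5' ends of genes, which for Hoxa3, Hoxc5 and Hoxd3 is that of a long transcript. Muscle has large points over Hoxa, Hoxc and Hoxd and few over Hoxb, kidney has many in all 4 clusters, and lung has few over Hoxc and Hoxd.

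The sequences of the region with the smallest tissue p in each cluster are shown, leaving out regions that overlap an annotated untranslated part, and with them the Hoxc region that separates 4 tissues from the other 4. All are plus strand of GRCm38, read from the RefSeq GRCm38.p6 assembly, and the capitals mark the 21 bases centred on the summit.
Hoxa region near Hoxa5 (chr6:52202752-52202861): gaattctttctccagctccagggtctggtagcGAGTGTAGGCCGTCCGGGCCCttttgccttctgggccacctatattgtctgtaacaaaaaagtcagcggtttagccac
Hoxb region near Hoxb9 (chr11:96266007-96266306): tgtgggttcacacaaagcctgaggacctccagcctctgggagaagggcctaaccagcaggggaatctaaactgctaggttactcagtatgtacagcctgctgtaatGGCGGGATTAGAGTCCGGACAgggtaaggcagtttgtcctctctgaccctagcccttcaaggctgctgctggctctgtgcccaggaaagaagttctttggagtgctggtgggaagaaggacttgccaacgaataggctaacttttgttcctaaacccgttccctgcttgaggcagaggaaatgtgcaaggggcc
Hoxc region near Hoxc11 (chr15:102953692-102953883): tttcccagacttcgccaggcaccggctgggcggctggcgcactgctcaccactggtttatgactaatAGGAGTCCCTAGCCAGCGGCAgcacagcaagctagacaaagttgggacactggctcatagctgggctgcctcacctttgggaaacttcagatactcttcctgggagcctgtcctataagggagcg
Hoxc region near Hoxc6 (chr15:103005492-103005735): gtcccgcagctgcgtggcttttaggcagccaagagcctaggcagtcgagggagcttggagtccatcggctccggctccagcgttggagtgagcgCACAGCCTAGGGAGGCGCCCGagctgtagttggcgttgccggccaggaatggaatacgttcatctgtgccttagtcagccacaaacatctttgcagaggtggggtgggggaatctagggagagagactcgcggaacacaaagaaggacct
Hoxd region near Hoxd10 (chr2:74691600-74691899): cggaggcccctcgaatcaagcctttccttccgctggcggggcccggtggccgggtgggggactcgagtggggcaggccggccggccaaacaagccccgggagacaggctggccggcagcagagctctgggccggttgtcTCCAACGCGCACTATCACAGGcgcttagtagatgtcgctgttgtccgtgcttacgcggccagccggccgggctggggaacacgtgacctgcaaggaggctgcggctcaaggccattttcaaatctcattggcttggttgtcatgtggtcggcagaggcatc

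The first, in a coding exon of Hoxa5 and 1793 bp from its start, was listed at 54.3 and 57.8 in fed and fasting brown adipose and at 0.0 in the other 14 libraries (adjusted p = 1.27e-07). The second was intergenic, 5334 bp from Hoxb9, and was listed at 86.4 and 81.4 in kidney and at 0.0 elsewhere (adjusted p = 4.86e-08). The third, intergenic and 658 bp from Hoxc11, was at 67.8 and 73.6 in muscle and 0.0 elsewhere (adjusted p = 9.73e-08). Each of these was thus found in both libraries of 1 tissue and in no other.

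The Hoxc region near Hoxc6, in an intron of Hoxc5 and Hoxc6, was at 88.8 and 85.0 in muscle, 71.5 and 70.2 in kidney, 65.5 and 72.1 in brown adipose, 70.4 and 64.4 in white adipose, and 4.4 and 0.0 in spleen, with 0.0 in liver, heart and lung (adjusted p = 7.23e-07). These 4 tissues did not overlap with the other 4. The Hoxd region, 175 bp upstream of Hoxd10 in an intron of Gm28309, carried the Hoxd10 values given above in all libraries but spleen, where it was at 0.0. Its adjusted p was 2.99e-05. The summit lay between -184 and -172 bp from the Hoxd10 start in the 4 muscle and kidney libraries.

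Among the other regions with the smallest p, a second kidney region of Hoxb in an intron of Gm53, 12217 bp from Hoxb9, was at 79.8 and 85.3 in kidney, 10.1 in fed white adipose and 0.0 in the other 13 libraries (adjusted p = 5.88e-07). A region in an intron of Hoxb3, 4128 bp from its start, was at 64.1 and 78.1 in kidney and 6.7 in fed white adipose (adjusted p = 6.11e-06). Kidney also had a region in an untranslated part of Hoxb3 at 51.0 and 45.2 and a region 409 bp from Hoxb6 at 46.5 and 47.8, both at 0.0 in every other library. A kidney region in an intron of Hoxa9 was at 56.9 and 62.3 and likewise at 0.0 elsewhere. A region 12 bp from the first of the Hoxc9 starts was at 86.7 and 79.2 in kidney and 63.5 and 67.9 in muscle, and at 0.0 elsewhere (adjusted p = 2.26e-07). A coding exon of Hoxa3 was listed at 33.2 and 36.2 in brown adipose only, an untranslated part of Hoxc9 at 48.9 and 43.5 in muscle only, and an intergenic site 4380 bp from Hoxa11 at 42.7 and 51.5 in liver only. At 122 bp from the Hoxd4 start a region was at 64.1 and 62.3 in brown adipose, 43.5 and 37.4 in white adipose, 5.0 in fasting kidney and 0.0 elsewhere (adjusted p = 6.30e-07).

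At the other extreme, 13 of the 264 regions were present in all 16 sets. They included the Hoxa7 start (87.0 to 96.0), the element upstream of Hoxc8 (69.9 to 92.4), the element upstream of Hoxb8 (81.3 to 92.8) and an intergenic Hoxb site 6558 bp from Hoxb4 (76.4 to 98.7). A Hoxd site in an exon of the noncoding gene Hoxd3os1, 4057 bp from Hoxd4, lay between 72.9 and 92.2. Lung, which lacked peaks at Hoxd1, Hoxd3 and Hoxd4, had this site at 79.1 and 74.8.

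Fixed motif patterns were searched on both strands within 100 bp of the strongest summit of each region. The CTCF pattern (CC, any 3 bases, then AGGNGGC) was found in 7 of the 264 Hox regions, or 2.65%, and in 2.73% of all regions. CTCF is a DNA-binding protein known for marking boundaries inside Hox clusters. The PBX-HOX pattern TGATTNAT was found in 8 Hox regions (3.03%, and 2.30% of all regions), the homeodomain core TAATTA in 7 (2.65% and 3.47%), the MEIS pattern TGACAG in 22 (8.33% and 16.6%), and the retinoic acid receptor direct repeat (GNTCA, any 6 bases, GNTCA) in 1 (0.379% and 0.801%). The PBX-HOX and homeodomain patterns can overlap. These shares are descriptions, and a match is not a measured binding site.

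The matches below show the CTCF pattern in the most widely shared regions and in a kidney region, and the PBX-HOX pattern in 2 regions that differed among tissues, with the match in capitals and 20 bases on each side.
CTCF, Hoxd3os1 exon (chr2:74715901-74715952): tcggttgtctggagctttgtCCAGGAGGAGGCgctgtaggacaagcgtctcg
CTCF, near Hoxb5 (chr11:96303225-96303276): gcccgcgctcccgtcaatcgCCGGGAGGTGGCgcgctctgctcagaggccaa
CTCF, Gm53 exon near Hoxb9 (chr11:96261733-96261784): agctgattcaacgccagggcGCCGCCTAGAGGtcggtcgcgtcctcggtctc
CTCF, Gm53 intron near Hoxb9 (chr11:96259214-96259265): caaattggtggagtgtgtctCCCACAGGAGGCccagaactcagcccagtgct
PBX-HOX, coding exon of Hoxb2 (chr11:96351895-96351942): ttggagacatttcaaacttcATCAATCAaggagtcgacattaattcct
PBX-HOX, near Hoxc6 (chr15:102998304-102998351): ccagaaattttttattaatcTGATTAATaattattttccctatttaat

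Of the CTCF matches, that of the Hoxd3os1 exon lay in a region of all 16 sets, and those near Hoxb5 and in the Gm53 exon lay in regions of 15 sets, fasting heart being at 0.0 in both. The match in the Gm53 intron lay in the kidney region described above. The PBX-HOX match in Hoxb2 lay in a region that was high in kidney (87.5 and 77.3), white adipose (83.2 and 75.2), brown adipose (83.4 and 58.5) and lung (78.5 and 69.9) and at 0.0 in muscle and spleen (adjusted p = 2.21e-04). The match near Hoxc6 lay in a region listed only in kidney, at 60.2 and 39.5 (adjusted p = 2.27e-04).

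Fasting was compared with feeding over the 8 tissues in the same model. No Hox gene differed (limma, adjusted p of 0.809 or more), and 0% of all genes tested were called higher in fasting and 0% lower. At an unadjusted p below 0.05 there were 0 Hox genes and 4.64% of all genes. Exact sign flips of the 8 fasting minus fed differences called 0 Hox genes. They gave 0 at an unadjusted p below 0.05 and a lowest p of 0.0625 for Hoxa4. The smallest p that the flips can give is 0.00781, which left little room for any call after adjustment over all genes. The lowest adjusted p of the flips over all genes was 0.821. The fasting minus fed difference over tissues ranged from -11 to 11.5 points among Hox genes, with a median of 1.28, and was above 0 for 22 genes and below 0 for 17.

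The 3 genes of smallest limma p for state were Hoxa10, Hoxc11 and Hoxd1. In fed and then fasting libraries Hoxa10 was at 95.8 and 95.8 in kidney, 91.5 and 90.3 in spleen, 88.4 and 87.3 in muscle, 83.2 and 80.3 in lung, 73.3 and 85.1 in white adipose, 60.5 and 87.0 in heart, 65.6 and 75.1 in liver, and 64.4 and 70.7 in brown adipose. The mean difference was 6.14 ± 3.41 points (unadjusted p = 0.104), and the tissue with the largest difference was heart. For Hoxc11 it was -11 ± 6.20 (unadjusted p = 0.109), which rests on liver and spleen summits of 12 to 15 tags, and for Hoxd1 it was -6.53 ± 3.81 (unadjusted p = 0.119). Within a tissue, the median size of the fasting minus fed difference was 5.35 points for Hox genes and 0.949 for all genes tested, beside a median range of the 8 tissue means of 60.0 points for Hox genes. With 1 pool per state a difference within 1 tissue has no replicate check. Among the regions inside the clusters, 0 of 264 were called for state by limma (0% over the genome), and 3 had an unadjusted p below 0.05, where 2.36% of all regions did.

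**Figure D5:**
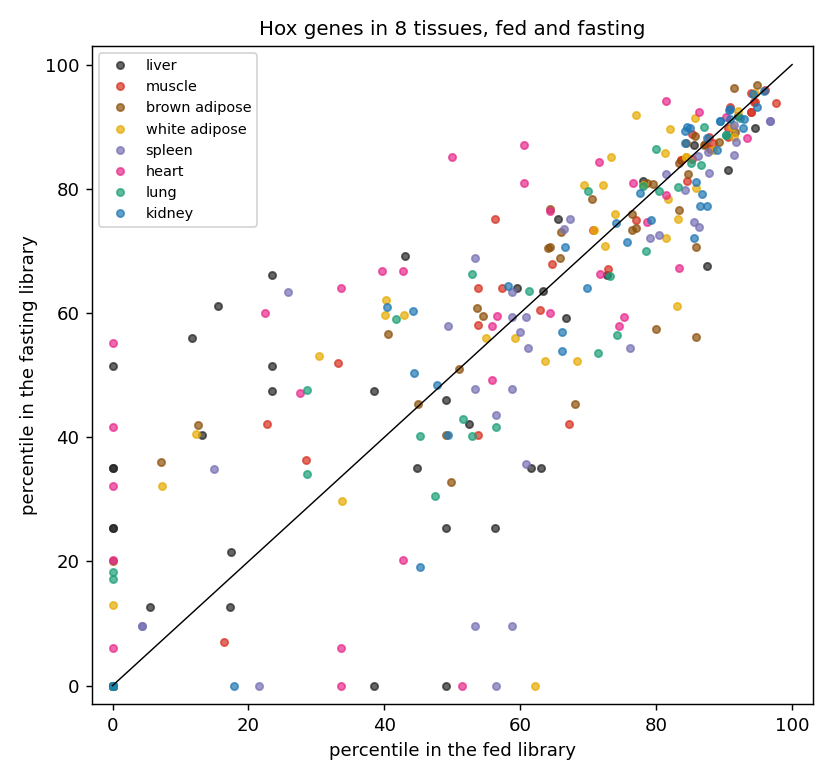
Percentile of Hox genes in the fasting library against the fed library of the same tissue, in 8 tissues, with the line of equal values. Points above 80 in both libraries lie near the line. Some points above 80 in only the fed or only the fasting library lie far from it. Examples are Hoxb6 in brown adipose (85.9 fed and 56.2 fasting) and Hoxa10 in heart (60.5 and 87.0). Points far from the line are mostly those of liver, heart and spleen, where a mid-range percentile rests on few tags. Others belong to the adipose tissues, such as Hoxb1 in white adipose (62.2 and 0.0).

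Genes that act with or upstream of Hox were taken from lists. Of 9 cofactor genes (PBX, MEIS and PKNOX families) 5 differed among tissues, of 20 Polycomb, trithorax and CTCF genes 13 did, of 9 upstream genes of the caudal and retinoic acid pathways 6 did, and of 17 other regional identity genes 12 did, beside the 64.7% of all genes, and none was called for state. Suz12, a core subunit of a Polycomb repressive complex, lay between 89.9 and 98.8 in all libraries and was lower in liver and spleen. Meis1 lay between 86.3 and 96.9, was higher in brown adipose and was lowest in kidney (86.3 and 86.8), the tissue with the most Hox peaks. Evx2, which lies beside Hoxd13, was called higher in spleen (69.2 and 74.8) and kidney (57.4 and 62.3) and was at 0.0 in both lung and both white adipose libraries and at 0.0 and 12 in brown adipose. Emx2, a regulator of the urogenital system, stood at 93.2 and 93.5 in kidney and 11.1 and 0.0 in lung. Of the 17 regional identity genes 3 were called higher in muscle, among them En1 (91.5 and 94.2) and Tbx15 (95.1 and 95.5), and 3 lower, among them the limb patterning gene Lmx1b (70.7 and 73.6). Over all genes tested 10.1% were higher and 12.4% lower in muscle. Lmx1b was not called by the tissue F test (limma, adjusted p = 0.0676).

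Bulk libraries cannot tell fewer cells of a type from less open chromatin per cell. A list of 5 mesenchyme and fibroblast markers had its highest mean percentile in white adipose (86.0) and muscle (81.7), tissues with high Hox cover, and its lowest in kidney (35.6), the tissue with the highest Hox cover. The part of cell composition in the Hox differences was not tested.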

How the data were processed

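ATAC-seq libraries of 8 tissues in 2 states (16 libraries, each a pool of 3 mice) were analysed from narrowPeak lists deposited by the authors. Reads were aligned to GRCm38 with Bowtie2, duplicates and mitochondrial reads were removed, and peaks were called with MACS2 at a permissive threshold, with lists limited to 300000 rows, per the study's methods and the submitters' processing notes. The deposited lists give fold enrichment as a ratio, -log10 p-values, -log10 q-values and the summit offset, and hold no read counts. Tags at a summit were recovered here from fold and p, and came out whole for nearly all rows (tolerance 0.001).

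Percentiles of -log10 p were computed within each list, and the strongest summit within 3000 bp of any GENCODE vM21 start was taken for each protein-coding gene. limma 3.58.1 (R 4.3.3) was fitted with tissue and state as terms and a mean-variance trend, with Benjamini-Hochberg adjustment over 19719 genes or 379519 regions at a threshold of 0.05. The fit was tested on simulated data. Exact sign flips over the 8 tissue pairs were a second test of state, with little room for a call after adjustment. Alternatives were a 1000 bp window, ranking by fold, rows of q under 0.01 only, gene 5' ends only, nearest start only, equal depth, no trend, a mean percentile of at least 10, and leaving out each tissue. Values in all 16 libraries were given for the 12 Hox genes of smallest tissue p, the 3 of smallest state p, and the first and last gene of each cluster. Some of these values are not reported here, and the figures of single genes and regions leave them out. For regions, those of smallest tissue p were named. The members, gene lists, markers and motifs were chosen with earlier results of these data known.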

Additional observations from a re-analysis of the deposited data

How the results depend on the processing

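Without replicates, no error between pools of mice could be measured, and a mid-range percentile rests on few tags in liver, spleen and heart. The 32 Hox genes that differed among tissues numbered between 23 and 32 over the alternatives and between 26 and 32 when a tissue was left out. The 38 higher calls became 60 with a 1000 bp window, 22 when ranked by fold enrichment and 23 at equal depth. Ranked by fold enrichment, muscle was higher at 9 and lower at 1, and kidney was higher at 7 and lower at 4. With a 1000 bp window muscle was higher at 20 and kidney at 18. The mean of 33.1 Hox genes with a peak per library became 25.2 at q under 1e-06, 10.8 among the 50000 rows of smallest p, 27.9 with a 1000 bp window, 31.6 with gene 5' ends only and 28.3 at equal depth. Hoxd4 was not called without lung (adjusted p = 0.0766). The causes of these changes were not tested. No call for state was made under any alternative, and none of the 80 tissue calls reversed. Weak values of rho changed sign: heart (-0.09 and -0.11) was at 0.02 in both states and fasting liver (0.11) at -0.02 with a 1000 bp window, and fed liver (-0.14) was at 0.01 with gene 5' ends only. Tissue pairs the states and is a term of the fit, and the sign flips used the same 8 pairs.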

Other observations

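Regions within 500000 bp beyond each end of the clusters showed tissue patterns of their own. Beyond the posterior end of Hoxd, next to Hoxd13, 15 of 45 regions (33.3%) were higher in muscle, and none was higher in brown or white adipose. Beyond the posterior end of Hoxc 30 of 130 regions (23.1%) were higher in muscle, against 13.3% of regions over the genome. These flanks hold other genes, and no region was assigned to a Hox gene.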
